A study of Mus musculus with 6 samples.

Results

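The genes described here are 8 channel genes that set how easily a muscle membrane fires: the potassium channel genes *Kcnj2*, *Kcnj12*, *Kcnj11*, *Kcnn3*, *Kcnq5*, and *Kcnh1*, the chloride channel gene *Clcn1*, and the sodium channel gene *Scn4a*. They were found by gene name among the 55421 genes of the count table, and all 8 were present. The set was selected by their roles in muscle and by the measured difference of *Kcnj2* between the groups, so the differences of the 8 genes are given as a description without a test. Of the 8 genes, 5 had enough counts to enter the fit over all genes, and 3 (*Kcnj11*, *Kcnq5*, and *Kcnh1*) did not.

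RNA was sequenced from C2C12 cells, a mouse myoblast line that fuses into myotubes in low serum, at differentiation day 4. The normal group (CUG5) carried a plasmid with 5 CTG repeats behind *GFP*, and the DM1 group (CUG200), a model of myotonic dystrophy type 1, carried the same kind of plasmid with 200 CTG repeats. Each group had 3 libraries. The cells of both groups were transfected and kept under G418 until stable, so the repeat RNA came from a transgene on top of the cells' own *Dmpk*, and the methods do not say whether the 3 libraries of a group came from separate transfections, clones, or only separate dishes. The p-values below therefore measure only the spread between these libraries.

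Inward rectifier channels such as the product of *Kcnj2* pass potassium best near the resting potential and hold the muscle membrane there, and in human myoblasts their current is known to hyperpolarize the cell ahead of fusion. The chloride channel of *Clcn1* damps the membrane after an action potential, and the sodium channel of *Scn4a* carries the action potential itself. Loss of CLCN1 function through missplicing is the known basis of myotonia in DM1, and levels per gene, as measured here, do not show splicing.

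The potassium channel genes of the set share a short signature in their coding sequence, the selectivity filter, which lines the pore and lets potassium through ahead of sodium. The coding stretch of 60 bases around it is shown 5′ to 3′ for 4 of them because it shows how close *Kcnj2* and *Kcnj11* are to each other in sequence and how far from the others, which bears on whether reads of one could be counted for another. Capitals mark the 15 bases that encode the filter.
*Kcnj2*: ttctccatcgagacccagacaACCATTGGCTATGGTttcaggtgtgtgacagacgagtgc
*Kcnj11*: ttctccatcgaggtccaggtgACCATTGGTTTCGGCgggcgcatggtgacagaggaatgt
*Kcnn3*: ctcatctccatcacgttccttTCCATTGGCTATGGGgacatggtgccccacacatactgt
*Kcnh1*: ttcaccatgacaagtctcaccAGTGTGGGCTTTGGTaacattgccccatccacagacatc

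These stretches are exonic coding sequence from GENCODE M21 transcripts on GRCm38. They lie at chr11:111072186-111072245 on the plus strand for *Kcnj2*, chr7:46099472-46099531 on the minus strand for *Kcnj11*, chr3:89645491-89645550 on the plus strand for *Kcnn3*, and chr1:192337733-192337792 on the plus strand for *Kcnh1*. *Kcnj2* and *Kcnj11* had the same base at 40 of the 60 positions (66.7%). *Kcnj2* matched *Kcnn3* at 25 positions (41.7%) and *Kcnh1* at 27 (45%), although 13 of the 15 filter bases of *Kcnn3* were those of *Kcnj2*. Over whole transcripts, none of the 5370 words of 75 bases in *Kcnj2* and none of the 2675 in *Kcnj12* occurred in another gene, so they share no identical stretch of that length. The same held for *Kcnj11*, *Kcnn3*, *Kcnh1*, and *Scn4a*. *Clcn1* shared 371 of its 5862 words (6.33%) with *Fam131b*, which overlaps its exons on the other strand, and *Kcnq5* shared 93 (1.18%) with *Gm26580*.

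The libraries held between 61707889 and 80957325 counts. A count was taken as 75 aligned bases and about 4 counts as 1 fragment, although the read length is not given. On that conversion, a gene with a handful of counts rests on 1 or a few fragments. Levels are in CPM, the counts of a gene relative to the library total after TMM scaling, and 3 counts, taken as the floor, came to 0.0357 to 0.0489 CPM. The presence of myotube RNA was checked with 30 myotube markers. All 30 had counts in both groups. By edgeR's quasi-likelihood test at an adjusted p under 0.05, 24 fell in the DM1 group and 0 rose, with 1 higher at an unadjusted p under 0.05 (the fusion peptide gene *Mymx*, log2 fold change 0.23, adjusted p = 0.0732) and 0 higher by DESeq2 or limma. Their summed level was 19040 to 20580 CPM in the normal group and 11900 to 13580 CPM in the DM1 group. In bulk RNA, fewer myotubes and less of these RNAs per myotube cannot be told apart. Of 15 markers of undifferentiated myoblasts, 14 were tested, of which 1 rose and 5 fell (1211 to 1261 against 963 to 1033 CPM in sum). Of 10 fibroblast or smooth muscle markers, 9 were tested, of which 5 rose and 0 fell (6823 to 7489 against 8275 to 8928 CPM). Of 10 neuronal markers, 5 were tested, of which 1 rose and 2 fell (290.2 to 295.5 against 295.5 to 327.6 CPM, with 1 marker at 0 throughout). Of 10 cardiac markers, 5 were tested, of which 0 rose and 2 fell (19.8 to 22.3 against 12 to 14 CPM, with 4 markers at 0 throughout). Over all tested genes, 7.13% rose and 8.73% fell by the same test. With each library left out in turn 15 to 23 myotube markers fell (15 without the third normal library) and 2 to 5 fibroblast or smooth muscle markers rose (2 or 3 without any one of the normal libraries or without the second DM1 library), and the myoblast markers that fell were 3 without the third normal or the second DM1 library. The neuronal markers that rose were 0 without any one of the normal libraries or without the second DM1 library, and 2 without the first DM1 library. Without the third DM1 library 1 myotube marker rose and 1 fibroblast or smooth muscle marker fell. Among cardiac and fibroblast or smooth muscle markers, the counts of 0 were also 0 at an unadjusted p under 0.05 in edgeR, by DESeq2, and by limma.

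Among the 8 genes, *Kcnj2* was the gene that stood apart between the groups, 2.85-fold higher in the fit and above every normal library in each DM1 library. *Kcnn3* and *Kcnj12* had overlapping levels in the groups, *Scn4a* was lower on average with overlap, and *Clcn1* was slightly higher at a very low level. *Kcnj11*, *Kcnq5*, and *Kcnh1* were at or near the limit of detection. Of the 5 fitted genes, 1 (*Kcnj2*) had a log2 fold change over 1 and 0 had one under -1, with no test made on them. Over all 19005 tested genes, 7.13% were higher and 8.73% were lower at an adjusted p under 0.05 by edgeR (15.9% either way), and 1.36% and 0.816% were so with an absolute log2 fold change over 1 as well. In 2 of the 5 (*Kcnj2* and *Clcn1*) all DM1 libraries were above all normal ones, as in 17.9% of all genes, and in 0 all were below, as in 19.3%. The median log2 fold change over all tested genes was 0.02. These shares are printed beside the counts only, since the set was chosen with this contrast known.

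**Figure D1:**
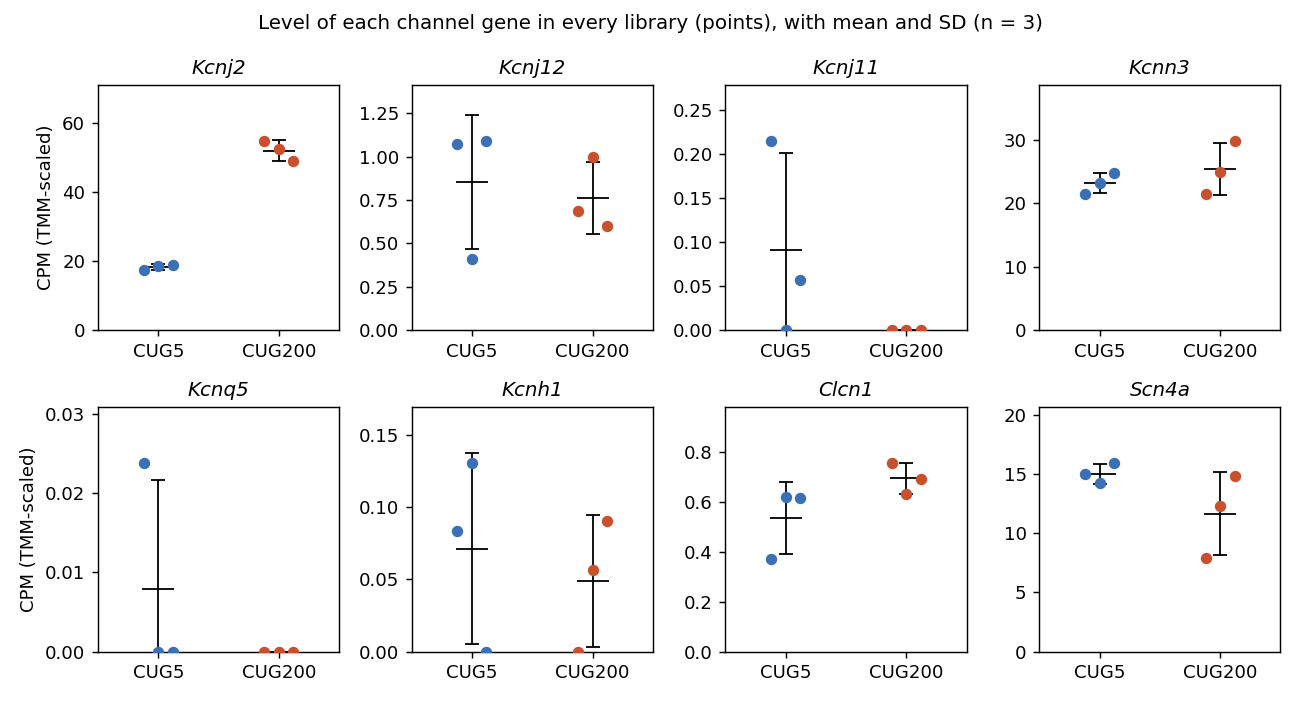
Level of each of the 8 channel genes in CPM (TMM-scaled, linear axes from 0, each with its own range) in the 3 CUG5 and 3 CUG200 libraries. Points are libraries, the long bar is the mean, and the whiskers are the SD. *Kcnj2* lies at 17.5 to 18.9 CPM in CUG5 and at 49 to 54.8 CPM in CUG200, and *Kcnj11* and *Kcnq5* are at 0 in every CUG200 library.

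*Kcnj2* encodes Kir2.1, the classical inward rectifier of skeletal and heart muscle. The gene lies on chromosome 11 (111066164 to 111076821 on GRCm38, plus strand) with 1 annotated transcript of 2 exons, the second of which holds the whole coding sequence of 1284 bases. Its counts were 1467, 1137, and 1320 in the normal libraries and 4071, 3749, and 3257 in the DM1 libraries. That is 17.5, 18.5, and 18.9 CPM against 54.8, 52.6, and 49 CPM. The groups did not overlap, and the lowest DM1 library was far above the highest normal library. The means were 18.3 ± 0.748 CPM and 52.1 ± 2.92 CPM (SD, n = 3), a log2 fold change of 1.51 with a standard error of 0.09, or 2.85-fold. On the length-scaled TPM values the levels were 5.72, 5.58, and 5.59 in the normal group and 14.2, 14.6, and 15.5 in the DM1 group. The DM1 libraries thus took the opposite order on this scale, and the gap between the groups stayed wide on both. With each library left out in turn the log2 fold change was between 1.48 and 1.55. No other gene's exons overlap those of *Kcnj2* in the annotation.

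*Kcnj12* encodes Kir2.2, the nearest relative of Kir2.1, with which it can form mixed channels. Its gene is also on chromosome 11, 61022564 to 61071131 on the plus strand. Its normal libraries held 90, 25, and 76 counts and its DM1 libraries 51, 71, and 40, or 1.07, 0.407, and 1.09 CPM against 0.686, 0.997, and 0.602 CPM. The DM1 libraries all lay inside the range of the normal libraries, in which the second was lowest. The means were 0.855 ± 0.388 and 0.761 ± 0.208 CPM, with a log2 fold change of -0.17 and a standard error of 0.42. Its sign is not settled, since leaving out single libraries moved the value between -0.50 and 0.04.

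*Kcnj11* encodes Kir6.2, the pore of the ATP-sensitive potassium channel, which couples the membrane to the energy state of the cell. It is a single-exon gene in its main transcript, on the minus strand of chromosome 7 (46093953 to 46100764). Its counts were 18, 0, and 4 in the normal group and 0 in each DM1 library. The groups met at 0, and most of the counts came from the first normal library. Without that library the normal mean falls under a floor of 3 counts per library, so no fold is given. Its regulatory partner *Abcc8* (SUR1), which lies next to it on chromosome 7, was at 0.523, 0.537, and 0.53 CPM in the normal group and 0.363, 0.014, and 0.226 CPM in the DM1 group. Every DM1 library was lower for *Abcc8*, but the test did not call it (log2 fold change -1.39, edgeR adjusted p = 0.262). *Abcc9* (SUR2), the partner used in adult muscle, had 6, 8, and 12 counts in the normal group and 0 in each DM1 library, too few to be tested, and its usual pore partner in vessels, *Kcnj8*, had 0 counts in all 6 libraries.

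*Kcnn3* encodes SK3, a small-conductance channel opened by intracellular calcium, which is known from immature and denervated muscle. The gene spans 155 kb on the plus strand of chromosome 3 (89520164 to 89675132) with 8 exons. Its counts were 1812, 1430, and 1731 in the normal group and 1603, 1778, and 1982 in the DM1 group. In CPM these were 21.6, 23.3, and 24.8 against 21.6, 25, and 29.8. The groups overlapped, with the first DM1 library beside the lowest normal library and the other DM1 libraries above all normal ones. The means were 23.2 ± 1.61 and 25.4 ± 4.15 CPM, with a log2 fold change of 0.13 and a standard error of 0.13. Of its relatives, *Kcnn4*, the intermediate-conductance channel, was at 15.8, 15.3, and 15.7 CPM against 18.6, 14.1, and 19.1 CPM (log2 fold change 0.14, edgeR adjusted p = 0.519). *Kcnn1* was likewise not called (0.12, adjusted p = 0.812 by edgeR), and *Kcnn2* had 4 counts in the second normal library and 0 in the other 5.

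*Kcnq5* encodes a subunit of the M-type current, which opens below the firing threshold. It had 2 counts in the first normal library and 0 in the other 5, under the floor in all of them, so no fold is given. *Kcnq1* reached at most 5 counts in a library.

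*Kcnh1* encodes the EAG channel, whose current in human myoblasts is known to precede that of Kir2.1 during differentiation. It had 7, 8, and 0 counts in the normal group and 0, 4, and 6 in the DM1 group. Each group had a library at 0, and the others overlapped. This amounts to about 4 fragments against 3, a ratio of 0.762 with a 95% exact interval of 0.112 to 4.5 that covers counting error only, so a difference was not detectable at this depth. *Hhat*, which overlaps the *Kcnh1* span on the other strand, had a log2 fold change of -0.01. Another channel of the EAG family, *Kcnh2* (ERG1), was at 5.25, 5.67, and 5.57 CPM in the normal group and 8.49, 8.51, and 10.4 CPM in the DM1 group. It rose, with a log2 fold change of 0.73, a standard error of 0.14, and an edgeR adjusted p of 0.0102, and it was not called by limma on log2(TPM + 1) or log2(TPM + 0.1) (adjusted p = 0.0915 and 0.0898). *Kcnh5*, the closest relative of *Kcnh1*, had 0 counts in all 6 libraries.

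*Clcn1* encodes ClC-1, the chloride channel of mature muscle fibres, on the plus strand of chromosome 6 (42286685 to 42315756) with 23 exons. Its normal libraries held 31, 38, and 43 counts and its DM1 libraries 56, 45, and 46, or 0.369, 0.619, and 0.615 CPM against 0.753, 0.632, and 0.692 CPM. All DM1 libraries were above all normal ones, by a narrow margin between the second libraries. The means were 0.534 ± 0.143 and 0.692 ± 0.0607 CPM, with a log2 fold change of 0.38 and a standard error of 0.35, so the difference was about as large as its error. On TPM the groups overlapped (0.182, 0.284, and 0.373 against 0.42, 0.264, and 0.332). *Fam131b*, whose exons overlap *Clcn1* on the opposite strand, was more abundant and rose from a mean of 5.58 to 10.9 CPM (log2 fold change 0.97, edgeR adjusted p = 0.00445). The strand setting of the counting is not stated in the sources used here, so reads of *Fam131b* and *Clcn1* in the shared stretch cannot be told apart. Without the first normal library the *Clcn1* value was 0.16, the lowest of the leave-one-out values, which reached 0.51.

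*Scn4a* encodes Nav1.4, the sodium channel of adult skeletal muscle. It is a gene of 24 exons on the minus strand of chromosome 11 (106318592 to 106353288), the same chromosome as *Kcnj2* and *Kcnj12*. Its counts were 1258, 873, and 1111 in the normal group and 586, 873, and 984 in the DM1 group. In CPM these were 15, 14.2, and 15.9 against 7.88, 12.2, and 14.8. The first DM1 library was the lowest by far, the second lay below all normal libraries, and the third lay among them. The means were 15 ± 0.844 and 11.6 ± 3.5 CPM, with a log2 fold change of -0.37 and a standard error of 0.21. Leaving out single libraries moved the value between -0.58 and -0.14, so its size depended on which library was kept. *Scn4a* and *Kcnn3* were both lowest in the first and highest in the third of the DM1 libraries, and *Kcnj2* in CPM had the opposite order.

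Levels were compared between genes on TPM, which scales for transcript length. In the normal group the order was *Kcnn3* (7.07 ± 0.356 TPM), *Kcnj2* (5.63 ± 0.078), *Scn4a* (3.82 ± 0.26), *Kcnj12* (0.601 ± 0.281), and *Clcn1* (0.28 ± 0.0952), with *Kcnj11* (0.0489), *Kcnh1* (0.016), and *Kcnq5* (0.0113) at the end. The libraries of *Kcnn3*, *Kcnj2*, and *Scn4a* did not overlap with each other, while those of *Kcnj12* and *Clcn1* did. In the DM1 group *Kcnj2* came first (14.7 ± 0.657 TPM), with no overlap with *Kcnn3* (7.2 ± 2), followed by *Scn4a* (2.78 ± 1.08), *Kcnj12* (0.492 ± 0.136), and *Clcn1* (0.339 ± 0.0786), the last pair again overlapping. *Kcnh1* was at a mean of 0.0107 TPM there, and *Kcnj11* and *Kcnq5* were listed at 0.

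**Figure D2:**
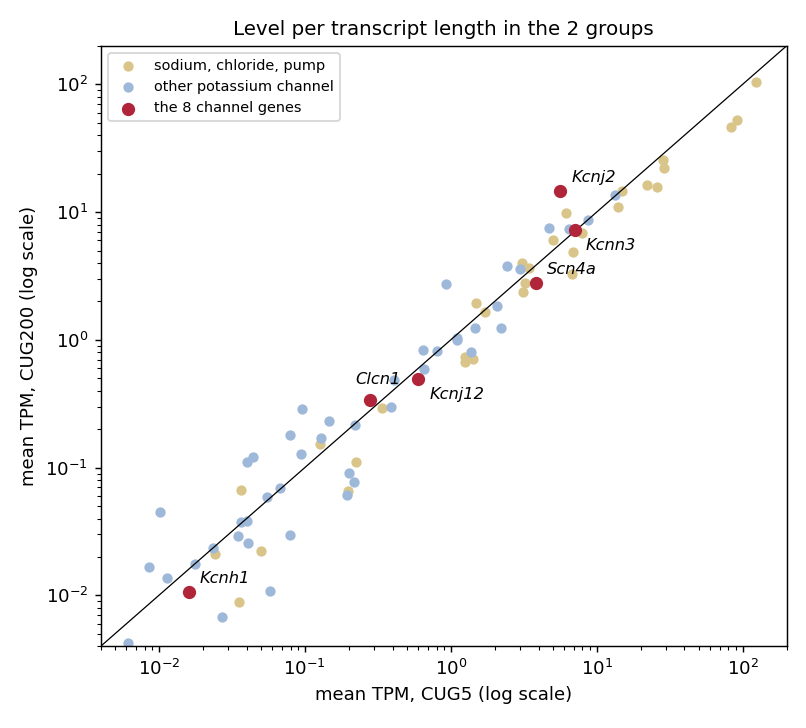
Mean TPM (3 libraries) of channel and sodium pump genes in CUG5 (x axis) and CUG200 (y axis), both on log scales, with the line of equal levels. Genes at 0 in a group, *Kcnj11* and *Kcnq5* among them, are not drawn. *Kcnj2* lies above the line at 5.63 and 14.7 TPM, while *Kcnn3* and *Kcnj12* lie close to it and *Scn4a* somewhat below it.

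Set against all 93 genes for potassium channel subunits, *Kcnj2* moved from rank 5 of mean TPM in the normal group to rank 1 in the DM1 group, and *Kcnn3* from rank 3 to rank 6. The genes above *Kcnj2* in the normal group included *Kcnn4* (13.4 TPM), *Kcnn3*, and *Kcnk2* (6.52 TPM). In the DM1 group *Kcnn4* was next in rank with a mean of 13.6 TPM, and in the third DM1 library it was above *Kcnj2* (16.4 against 15.5 TPM), so the first rank of *Kcnj2* holds for the mean and not for every library. *Kcnj2* took 7.87%, 8.5%, and 8.79% of the summed potassium channel TPM in the normal libraries and 19.3%, 18.6%, and 16.4% in the DM1 libraries. The shares of *Kcnn3* were 9.17%, 10.9%, and 11.5% against 7.36%, 8.75%, and 9.93%. The TPM ratio of *Kcnj2* to *Kcnn3* within a library was 0.859, 0.777, and 0.762 in the normal group and 2.62, 2.12, and 1.65 in the DM1 group. *Kcnn3* was thus the higher of the pair in every normal library and *Kcnj2* in every DM1 library.

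Among the 15 inward rectifier genes, *Kcnj2* made up most of the signal in every library, 79.7%, 89.7%, and 82.9% of their summed TPM in the normal group and 93.2%, 92.3%, and 94.6% in the DM1 group. The sum itself was 7.18, 6.22, and 6.74 TPM against 15.2, 15.8, and 16.3 TPM. Among the 10 sodium channel alpha subunit genes, *Scn4a* took 37%, 32.4%, and 35.9% of the TPM in the normal group and 24.5%, 32.3%, and 34.2% in the DM1 group, an overlap by the third DM1 library.

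The other potassium channel genes were taken from a list of 89 genes written out by family, which includes 2 sulfonylurea receptor genes. Of these, 62 had a count and 32 were tested. In the DM1 group 3 of the 32 rose, 2 fell, and 27 were not called by edgeR's quasi-likelihood test at an adjusted p under 0.05, with a median log2 fold change of 0.20 beside 0.02 over all tested genes. Over all tested genes 7.13% rose and 8.73% fell, so the calls in this list were near the background. Only *Kcnd1* rose and only *Kcnj15* fell with an absolute log2 fold change over 1. By role, 0 of the 4 tested inward rectifier genes other than the 8 rose and 1 fell, and 0 of the 7 calcium- or sodium-activated channel genes were called in either direction. The 0 rises among inward rectifier genes and the 0 calls among calcium- or sodium-activated genes were also 0 at an unadjusted p under 0.05, by DESeq2, and by limma on TPM. The 3 inward rectifier genes that were not called had higher means in the DM1 group, at few counts. Their log2 fold changes were 1.51 (*Kcnj9*), 1.27 (*Kcnj16*), and 0.76 (*Kcnj13*), with edgeR adjusted p of 0.302, 0.254, and 0.547. *Kcnj9* had 12, 0, and 12 counts in the normal group and 25, 16, and 24 in the DM1 group. *Kcnj2* itself had a log2 fold change of 1.51, about that of *Kcnj9* but at far higher counts.

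*Kcnd1* (Kv4.1, a rapidly inactivating A-type channel) was at 2.85, 3.16, and 2.75 CPM in the normal group and 7.61, 7.34, and 11.1 CPM in the DM1 group. The groups were far apart, with a log2 fold change of 1.57, a standard error of 0.19, and an edgeR adjusted p of 0.00249, close in size to the change of *Kcnj2*. *Kcnk2* (TREK-1, a background channel that responds to stretch) was at 5.16, 6.35, and 4.65 against 7.65, 8.73, and 7.25 CPM (log2 fold change 0.55, edgeR adjusted p = 0.0478). Its call was lost without the first or the third normal library (adjusted p = 0.143 and 0.162) and without the first or second DM1 library (0.0709 and 0.167), and *A430027H14Rik* overlaps its exons on the other strand. *Kcnj15* (Kir4.2, an inward rectifier of epithelia) had 24, 22, and 38 counts in the normal group and 0 in every DM1 library (edgeR adjusted p = 0.00868). The normal mean was 9.31-fold the floor of 3 counts per library. That floor is a convention and not a confidence bound, so the size of the fall is not settled. DESeq2 gave *Kcnj15* no adjusted p, and the limma tests on TPM did not call it (0.0760 and 0.189). Its exons overlap those of *Gm49643* on the other strand. *Kcnf1* (Kv5.1, a silent subunit that modifies other channels) fell from 6.99, 5.7, and 6.24 CPM to 3.91, 3.76, and 3.96 CPM (log2 fold change -0.70, edgeR adjusted p = 0.0139). Its call was lost without the first or the third normal library (adjusted p = 0.0598 and 0.0617) or the second DM1 library (0.0604). Of the called potassium channel genes, limma on TPM called *Kcnd1* alone at either pseudocount, with adjusted p of 0.586 for *Kcnk2* and of 0.0745 and 0.081 for *Kcnf1*.

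**Figure D3:**
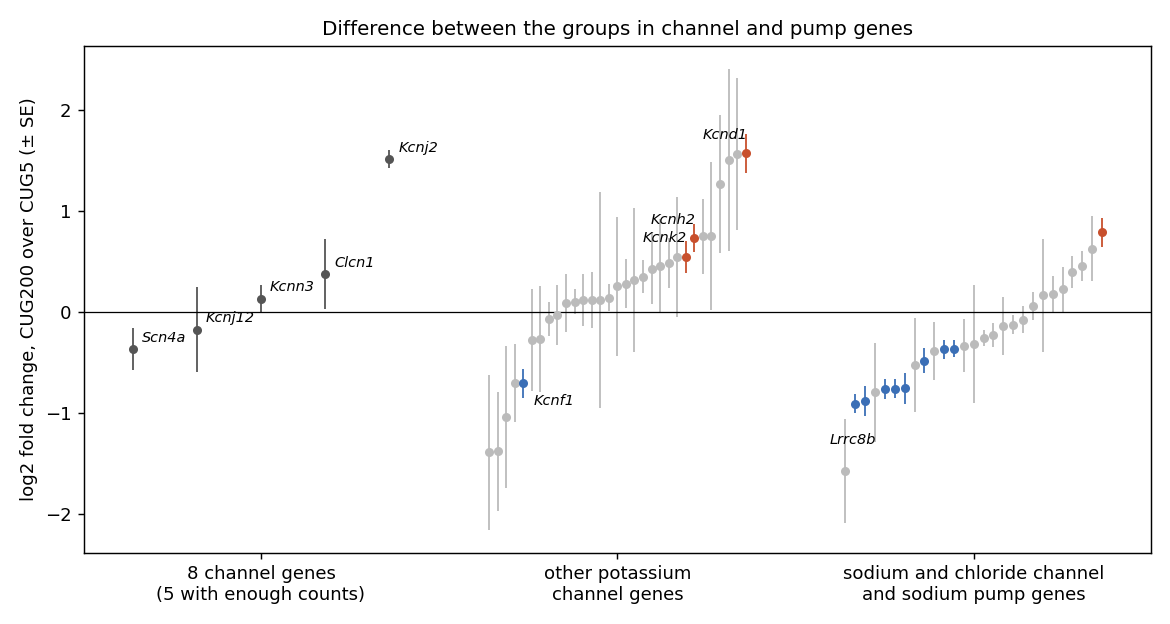
Log2 fold change (CUG200 over CUG5, with standard error bars) of each fitted gene, in order of size within the 8 channel genes (dark grey, given without a test), the other potassium channel genes, and the sodium and chloride channel and sodium pump genes. Red points rose and blue points fell at an adjusted p under 0.05 (edgeR), pale grey points were not called, and *Kcnj15*, at 0 in every CUG200 library, is left out. *Kcnj2* at 1.51 and *Kcnd1* at 1.57 are the highest points of their panels, and 8 of the 9 called genes of the last panel lie below 0.

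A second list held the other sodium and chloride channel genes, chloride exchangers of inner membranes and volume-regulated channels included, and the sodium pump genes. Of 38 such genes 33 had a count and 27 were tested. In the DM1 group 1 rose, 8 fell, and 18 were not called by edgeR, where 7.13% of all tested genes rose and 8.73% fell, with a median log2 fold change of -0.31 beside 0.02 over all tested genes. None of the called genes was past an absolute log2 fold change of 1. Without the first or the third normal library 4 fell, and without the second DM1 library 5 fell.

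Among chloride channel genes, *Clcn5*, a chloride-proton exchanger of endosomes, fell from 302.6, 277.7, and 338.9 CPM to 181.6, 173.9, and 188.4 CPM (log2 fold change -0.76, edgeR adjusted p = 0.00277). *Lrrc8b*, a subunit of the volume-regulated anion channel, fell from 25.9, 27.2, and 28 to 15, 13.7, and 14.5 CPM (-0.91, edgeR adjusted p = 0.00179). The falls of *Clcn4* (-0.36), *Clcn7* (-0.48), and *Lrrc8c* (-0.37), of which the first 2 are exchangers of endosomes and lysosomes, were smaller, with edgeR adjusted p of 0.0223, 0.031, and 0.0346. The call of *Clcn4* was lost without the first or the third normal library or the second DM1 library (0.0721 to 0.122), and those of *Clcn7* and *Lrrc8c* without any of the libraries except the third DM1 library (0.0743 to 0.118 for *Clcn7* and 0.0805 to 0.161 for *Lrrc8c*, with both normal and DM1 libraries concerned). *Gm45631* overlaps the exons of *Clcn4* on the other strand. The relatives of *Clcn1* at the plasma membrane and in endosomes, *Clcn2* and *Clcn3*, were not called (log2 fold change 0.40 and -0.25, edgeR adjusted p = 0.132 and 0.0596). The other sodium channel genes with a call were *Scn7a*, which encodes a sodium-sensing channel of glia and other cells (log2 fold change -0.88, edgeR adjusted p = 0.008), and *Scn10a*, which encodes the Nav1.8 of sensory neurons (-0.76, edgeR adjusted p = 0.0149). The call of *Scn10a* was lost without the first or the third normal library (adjusted p = 0.0558 and 0.0702). On TPM with a pseudocount of 0.1, limma did not call *Scn7a* (adjusted p = 0.0616), and at either pseudocount it did not call *Scn10a* (0.0745 and 0.0995), *Clcn4* (0.115 and 0.114), or *Lrrc8c* (0.118 and 0.122).

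The levels of the channel genes were then set beside those of the myotube markers, since many channels are switched on as myotubes form. Per 1000 CPM of the 30 markers, *Kcnj2* was at 0.848, 0.972, and 0.927 CPM in the normal group and 4.5, 4.42, and 3.61 CPM in the DM1 group, so its separation was wider on this scale than on CPM alone. *Scn4a* was at 0.727, 0.747, and 0.78 against 0.648, 1.03, and 1.09, with the first DM1 library below and the other two above the normal libraries. *Kcnn3* was at 1.05, 1.22, and 1.22 against 1.77, 2.1, and 2.19, with no overlap on this scale although the CPM overlapped. The marker sum that divides these values was lower in every DM1 library. The part of the myotube, myoblast, and fibroblast or smooth muscle markers in the values of the channel genes was not tested.

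**Figure D4:**
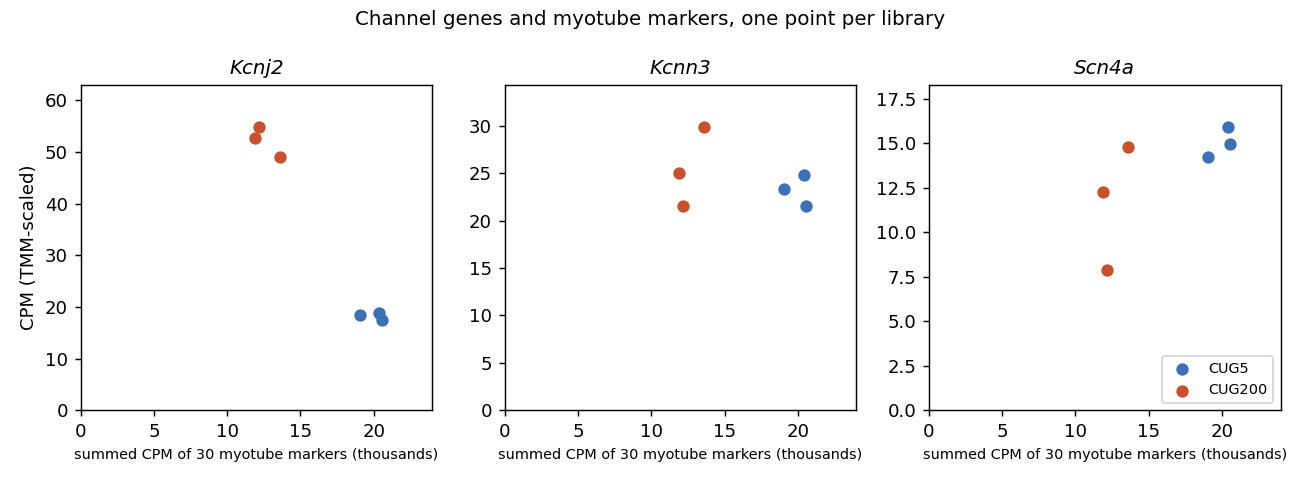
CPM of *Kcnj2*, *Kcnn3*, and *Scn4a* (y axes, TMM-scaled, from 0) against the summed CPM of 30 myotube markers (x axis, in units of 1000 CPM) in each of the 6 libraries. The DM1 libraries lie to the left (11900 to 13580 CPM of markers against 19040 to 20580), high for *Kcnj2*, level with or above the normal libraries for *Kcnn3*, and among or below them for *Scn4a*.

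Over the 6 libraries, the genes whose log2 CPM followed that of *Kcnj2* most closely were *Nlrp4e*, *Gimap8*, and *Fam221b*, with Pearson's r of 0.99936, 0.99866, and 0.99851. These libraries fall into the 2 groups, and r here mainly describes a gap between the groups with little spread inside them. It exceeded 0.99 for 46 genes. *Nlrp4e* was at 0.964, 1.12, and 1.16 CPM against 5.17, 5.11, and 4.62 CPM, and *Fam221b* at 95.8, 96.2, and 96.4 against 150.7, 144.6, and 144.1 CPM. Both are lowest in the third of the DM1 libraries, as *Kcnj2* is. *Gimap8* was at 0 in the normal group and at 0.256, 0.225, and 0.211 CPM in the DM1 group. None of the 3 is a channel gene.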

How the data were processed

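Total RNA of C2C12 cells at differentiation day 4 was sequenced, with 3 libraries of the normal group (CUG5) and 3 of the DM1 group (CUG200), grouped and numbered by the sample labels. The authors trimmed the reads with Trim Galore, aligned them to GRCm38 with HISAT2, and ran StringTie. The deposited table of raw counts per gene served all main fits. They also deposited a table per library with coverage, FPKM, and TPM of each gene. The deposited TPM values were used for levels between genes and for an alternative test, and the deposited coverage and FPKM values were not used for results. The read length and strand setting of the counting are not given in the sources used here.

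Genes were filtered with filterByExpr (minimum count 10), which left 19005 of 55421, and scaled by TMM. The DM1 group was set against the normal group in edgeR (quasi-likelihood test, robust, group only), with Benjamini-Hochberg adjustment over all tested genes and calls at an adjusted p under 0.05. CPM values are scaled by TMM. Folds against a group at 0 used a floor of 3 counts per library. Within groups the libraries differed by more than sampling noise (10.7 to 40.3 by chi-square over its degrees of freedom), and each counted as 1 replicate. The intervals cover counting error only.

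The 8 genes and the lists were chosen with earlier results of these data known. Named are the 8 genes, from each of the 2 other lists up to 8 genes of smallest p in each direction among those called, partners and relatives whatever their values, and the 3 genes with the highest Pearson correlation with *Kcnj2*. *Fam131b*, *Mymx*, and the genes near *Kcnj2* were named after their values were seen. Some genes and sequences that this rule names are not reported here. Marker lists covered myotube, undifferentiated myoblast, neuronal, cardiac, and fibroblast or smooth muscle genes. Alternatives were DESeq2, its size factors, every gene with a count, only genes with 10 or more counts in all libraries, a replicate block, counts divided by 4, limma-trend on TPM with a pseudocount of 1 or 0.1 before the log2, and each library left out. The tests were tested on simulated data. Sequences and exon positions came from GENCODE M21 transcripts, with the printed filter stretches found as threonine or serine, any of 5 small or aliphatic residues, glycine, tyrosine or phenylalanine, and glycine. Tools were R 4.3.3, edgeR 4.0.16, limma 3.58.1, DESeq2 1.42.0, Python 3.11.15, Biopython 1.88, pandas 2.3.3, and matplotlib 3.10.9.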

Additional observations from a re-analysis of the deposited data

How the results depend on the processing

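No log2 fold change of a called gene reversed under those of the 14 alternatives that gave it a value. *Kcnj2* was 1.24 by limma-trend on log2(TPM + 1) and 1.37 on log2(TPM + 0.1), and between 1.48 and 1.55 with each library left out. *Clcn1* was 0.0663 on log2(TPM + 1), where the pseudocount exceeds its level, and 0.164 to 0.506 with a library left out. Over the alternatives *Kcnj12* was between -0.504 and 0.0422, *Kcnn3* between -0.00754 and 0.253, and *Scn4a* between -0.58 and -0.138, so the sign is unsettled for *Kcnj12* and *Kcnn3*.

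Among the other potassium channel genes 3 rose in the main test, 1 on either TPM scale, and 2 to 3 with a library left out. There 2 fell in the main test, 1 with DESeq2, with at least 10 counts in every library or with counts divided by 4, 0 on either TPM scale (limma, with 3 lower at an unadjusted p in edgeR), and 1 to 2 with a library left out. Of the sodium and chloride channel and pump genes 1 rose in the main test, 2 with DESeq2, 0 on either TPM scale, and 1 to 2 with a library left out. There 8 fell, with 5 on log2(TPM + 1), 4 on log2(TPM + 0.1), and 4 to 8 with a library left out.

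Over all genes 1356 rose and 1660 fell. On log2(TPM + 1) 427 and 816 did, and on log2(TPM + 0.1) 434 and 850. With a library left out 543 to 1678 rose and 485 to 2111 fell, fewest without the third normal library. The cause was not tested. Counts of a few fragments limit *Kcnj11*, *Kcnq5*, and *Kcnh1*.

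The labels do not say whether the replicate numbers pair the libraries, and residual correlations with so few libraries could not settle it. Same-numbered libraries had residual correlations of 0.0675, 0.0222, and 0.0263, beside -0.072 to 0.045 for other numbers. Only replicate 1 correlated best with its own number. With a replicate block *Kcnj2* was 1.51 with a standard error of 0.0948, 1326 genes rose and 1497 fell, and no listed count of channel genes moved.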

Other observations

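The genes around *Kcnj2* on chromosome 11 were looked at after the values of *Kcnj2* were seen, in a window of 1 Mb on either side. Of 12 other genes in it, 6 had enough counts to be tested. Its nearest neighbour, *Kcnj16* (Kir5.1, an inward rectifier of kidney and brain), ends 38196 bases from *Kcnj2* on the same strand. Its normal libraries held 7, 21, and 10 counts and its DM1 libraries 43, 42, and 12, with overlap between the groups, and it was not called (log2 fold change 1.27, edgeR adjusted p = 0.254). *Map2k6*, which encodes the kinase MKK6 upstream of p38 and lies 540642 bases away, rose (0.85, edgeR adjusted p = 0.0197), a call lost without the second or the third normal library (adjusted p = 0.0765 and 0.0832) or the second DM1 library (0.0747). *Abca8a*, a lipid transporter gene 970186 bases away, fell (-2.08, edgeR adjusted p = 0.0271), and *Abca9* (-0.64), *Abca5* (-0.10), and *Gm11677* (0.29) were not called (edgeR adjusted p of 0.257, 0.616, and 0.79). The call of *Abca8a* was lost without any one of the normal libraries (0.0516 to 0.0919) or without the second DM1 library (0.0947). The called genes near *Kcnj2* lay in both directions.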
